A study of Mus musculus with 4 samples.

Results

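The cells described here are Lyz2-positive cells of the mouse pancreas with few C1q transcripts, 84 of the 12807 cell barcodes that passed filters in 4 single-cell RNA libraries. They were proposed as monocytes and were chosen from their own counts. A barcode with 500 or more unique molecular identifiers (UMIs), 200 or more genes and a mitochondrial share of 20% or less was taken when it held 5 or more UMIs of Lyz2, 2 or more of Ly6c2, Plac8 and Ccr2 together, and fewer than 10 of C1qa, C1qb and C1qc together. Flt3, Cd209a, Cd3e and Cd79a had to be at 0, Csf3r and Krt18 at 1 UMI at most, and Col3a1 at 2 at most. The values of these genes chose the cells, so they are given as a description and nothing is read from them. Most cells of the largest library carried macrophage or dendritic cell genes, and the cells are therefore called C1q-low cells here. A Ly6c2 UMI was present in 8 of 65 cells of that library, which is a description only.

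The pancreata came from wild-type C57BL/6 mice, and cells that excluded the dye DAPI were sorted before 3' library preparation with the 10x Genomics assay. C2D came from caerulein-treated mice after 2 days of recovery and is labelled pancreatitis. S2D came from saline-treated mice after 2 days and is labelled inflammation-naïve, C6W followed caerulein with 6 weeks of recovery, and S6W followed saline with 6 weeks. Caerulein is a cholecystokinin analogue that makes acinar cells digest themselves and so causes acute pancreatitis. Each group is 1 library, with nothing in the labels on how many mice went into it, so a difference between libraries has no replicate check and no p-value is given. Intervals are exact 95% intervals and cover counting error only.

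Classical monocytes leave the bone marrow through the chemokine receptor Ccr2, carry Ly6c2 on their surface and enter inflamed tissue, where they can turn into macrophages or into cells that present antigen. Nonclassical monocytes patrol vessel walls, depend on the transcription factor Nr4a1 and carry little Ly6c2. C1qa, C1qb and C1qc encode the chains of complement C1q, which resident and matured macrophages make in large amounts and blood monocytes hardly make. Low C1q alone is also a property of dendritic cells and neutrophils, which is why the genes of those cells are looked at below.

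The 4 libraries passed 4656 barcodes in C2D, 3346 in S2D, 2773 in C6W and 2032 in S6W, with median depths of 14061, 8339, 10562 and 10345.5 UMIs. The C1q-low cells held a median of 12666 UMIs in C2D, 12210 in S2D and 11787 in C6W, and the 2 cells of S6W held 14627 and 8193. No barcode of a C1q-low cell occurred in another library. Digestive transcripts reached 9810 and 3476 UMIs in 2 of the 9 S2D cells, and leaving both out moved no CPM level given for all 9 S2D cells by more than 20%, while the S2D medians of Apoe and MHC class II per 10000 UMIs moved and are given both ways. The doublet caller marked 1 of the 65 C2D cells.

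C1q-low cells made up 1.40% of C2D barcodes (65 cells, 1.08 to 1.78%), against 0.269% of S2D barcodes (9 cells, 0.123 to 0.510%). After 6 weeks they made up 0.288% in C6W (8 cells, 0.125 to 0.568%), against 0.0984% in S6W (2 cells, 0.0119 to 0.355%). The C2D interval lay above the other 3, and the C6W and S6W intervals overlapped. Split by Ly6c2, a gene the rule uses, the counts are a description only. Cells with any Ly6c2 were 0.172% of C2D barcodes (8 cells, 0.0742 to 0.338%), against 0.120% in S2D (4 cells, 0.0326 to 0.306%), and 0.144% of C6W barcodes (4 cells), against 0.0492% in S6W (1 cell). Cells without Ly6c2 were 57 in C2D (1.22%, 0.929 to 1.58%), against 5 in S2D (0.149%, 0.0485 to 0.348%).

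**Figure D1:**
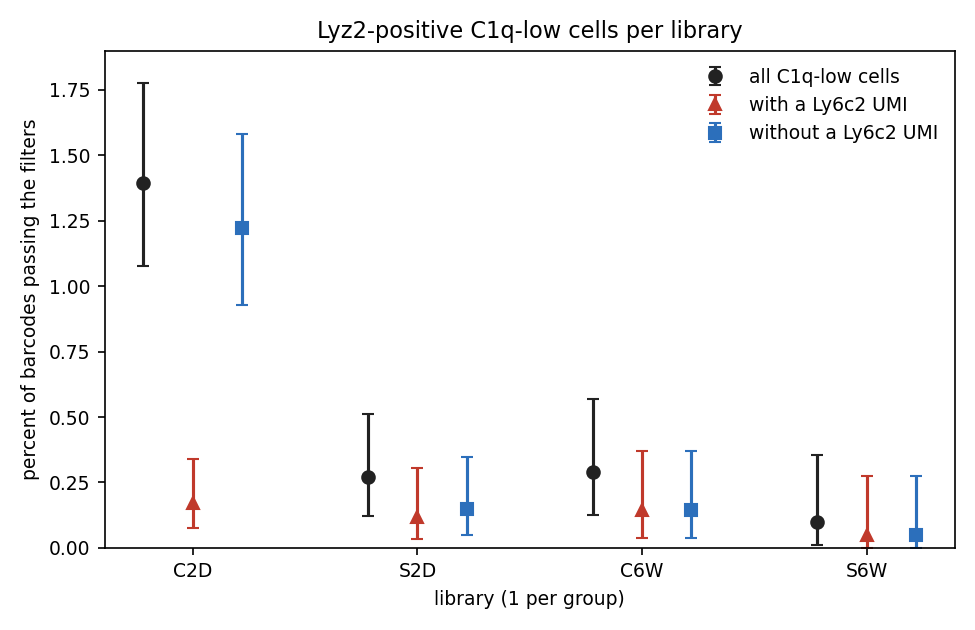
Share of filtered barcodes (percent, vertical axis) that were Lyz2-positive C1q-low cells in each of the 4 libraries, for all such cells and for those with and without a Ly6c2 UMI; points are shares and bars exact 95% intervals. The C2D point at 1.40% stands above the S2D point at 0.269%, while the points for cells with Ly6c2 overlap in their intervals in all 4 libraries.

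The C1q-high cells of the same libraries, which met the same conditions on barcodes and on Lyz2 and the excluded genes but held 10 or more C1q UMIs, were more numerous in C2D as well. They made up 26.5% of C2D barcodes (1236 cells), against 1.61% in S2D (54 cells), and 2.63% in C6W (73 cells), against 4.63% in S6W (94 cells). As a share of both kinds together, C1q-low cells were 4.996% in C2D, with an interval of 3.88 to 6.32%. The share was larger in S2D, at 14.3% (6.75 to 25.4%). It was 9.88% in C6W (4.36 to 18.5%), against 2.08% in S6W (0.253 to 7.32%). C1q-low cells were thus a larger share of barcodes in C2D than in S2D and a smaller share of C1q-low and C1q-high cells together. The C1q-high cells had no condition on the monocyte genes, so the 2 parts of that share were not chosen alike. The rule counts UMIs, and C2D barcodes held more UMIs than S2D barcodes, at medians of 14061 and 8339. Barcodes with 5000 or more UMIs were thinned to 5000 before the rule was applied, and shallower ones were left out. The share was then 1.97% in C2D (81 of 4112 barcodes) and 0.237% in S2D (6 cells). Thinning also lowers the counts of C1q and of the excluded genes, so it admits cells that the full counts left out.

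The cells came out of the rule by different routes. In C2D, 2582 barcodes held enough Lyz2, 1374 of them enough of the monocyte genes, and 259 of those few enough C1q UMIs. The condition on Flt3, a growth factor receptor of dendritic cells, then left 135, and the remaining conditions left 65. The 4 C2D cells just inside the C1q limit, with 8 or 9 UMIs, held 261 Apoe and 609 MHC class II UMIs per 10000, and the 3 barcodes just outside, with 10 or 11, held 11.1 and 799. The 10 C2D cells with exactly 2 monocyte-gene UMIs had a median depth of 9275.5 UMIs, and the 20 barcodes left out with 1 had a median of 2609.

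Ccr2 admitted most of the C2D cells. It was detected in 64 of 65 C2D cells against 6 of 9 S2D cells, and in 5 of 8 C6W cells against 1 of 2 S6W cells. Plac8, a lysosomal protein gene of monocytes and other leukocytes, was detected in 25 of 65 C2D cells against 7 of 9 S2D cells, and in 7 of 8 C6W cells against 2 of 2 S6W cells. Ccr2 was the only monocyte gene of the rule in 38 of 65 C2D cells against 2 of 9 S2D cells. In C2D 27 of 65 cells held no C1q UMI, against 9 of 9 in S2D. The genes lie on separate chromosomes in GRCm38, with Ly6c2 at chr15:75108158-75111970 on the minus strand, Plac8 at chr5:100553725-100572245 on the minus strand and Ccr2 at chr9:124101950-124113557 on the plus strand, while C1qa, C1qb and C1qc lie side by side between chr4:136880129 and chr4:136898803.

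Ly6c2 itself was rare and uneven. The 8 positive C2D cells held 80, 41, 31, 6, 4, 2, 1 and 1 UMIs, and the 4 positive S2D cells held 32, 7, 2 and 1. In C6W the 4 positive cells held 42, 33, 12 and 2, and the S6W cell held 5. In C2D 3 cells carried 91.6% of the transcript. Ly6c2 has a near-identical neighbour, Ly6c1, and reads of the pair can be shared or lost in counting, so its level is uncertain. Fibroblast-type barcodes rich in Col3a1, which should lack the gene, gave no Ly6c2 UMI in 551 C2D and 586 S2D cells at median depths of 22242 and 11371.5 UMIs. Plac8 was no such marker, since 96.4% of the C2D and 81.6% of the S2D Col3a1-rich barcodes held it, while Ccr2 was found in 1.27% and 0%.

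Ly6c2 was also counted in all Lyz2-positive cells that met the other conditions, with none on the monocyte genes, so that both sides were chosen alike. In C2D 9 of 142 such cells with fewer than 10 C1q UMIs (6.34%, 2.94 to 11.7%) and 74 of 1236 with 10 or more (5.99%, 4.73 to 7.46%) held a Ly6c2 UMI. Their median depths differed, at 7179.5 and 13862.5 UMIs. After thinning to 2000 UMIs, which left out 32 and 12 cells, the shares were 6.36% (2.60 to 12.7%) and 1.39% (0.811 to 2.21%), so the intervals overlapped at full depth and no longer did at equal depth. Outside C2D the cells with Ly6c2 were all on the low side, 5 of 15 against 0 of 54 in S2D, 4 of 10 against 0 of 73 in C6W and 1 of 6 against 0 of 94 in S6W. Of the 4 C6W cells, 2 were the neutrophil-gene cells described below.

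Cells ordered by C1q count within C2D, all with 2 or more monocyte-gene UMIs, gave a level and a share that differed in shape. Summed Ly6c2 was 350 CPM (UMIs scaled to 1000000 UMIs of the summed cells) in the 27 cells with no C1q UMI, 93.9 in the 38 cells with 1 to 9, 14.1 in the 61 cells with 10 to 49, 14.2 in the 99 cells with 50 to 99 and 18.8 in the 455 cells with 100 or more. The first level came from 3 cells with 80, 41 and 6 UMIs, and 31 of the 39 UMIs of the second came from 1 cell. The share of cells with a Ly6c2 UMI was 11.1, 13.2, 9.84, 8.08 and 8.57% over the same bins.

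Other genes followed the C1q count differently. H2-Aa, an MHC class II chain, was highest at 1 to 9 C1q UMIs, with 8006 CPM against 4676 at 0, 4634 at 10 to 49, 3738 at 50 to 99 and 1739 at 100 or more. Apoe, the lipid transport protein of macrophages, stood at 24679 and 24204 in the lowest bins and at 27201, 35841 and 40642 above them. Mrc1, the mannose receptor of tissue macrophages, stood at 173, 193, 305, 328 and 334. Il1b, the gene of interleukin 1 beta, stood at 5562, 6323, 4563, 4445 and 3010. These levels sum cells of mixed kinds, as the next paragraphs show.

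**Figure D2:**
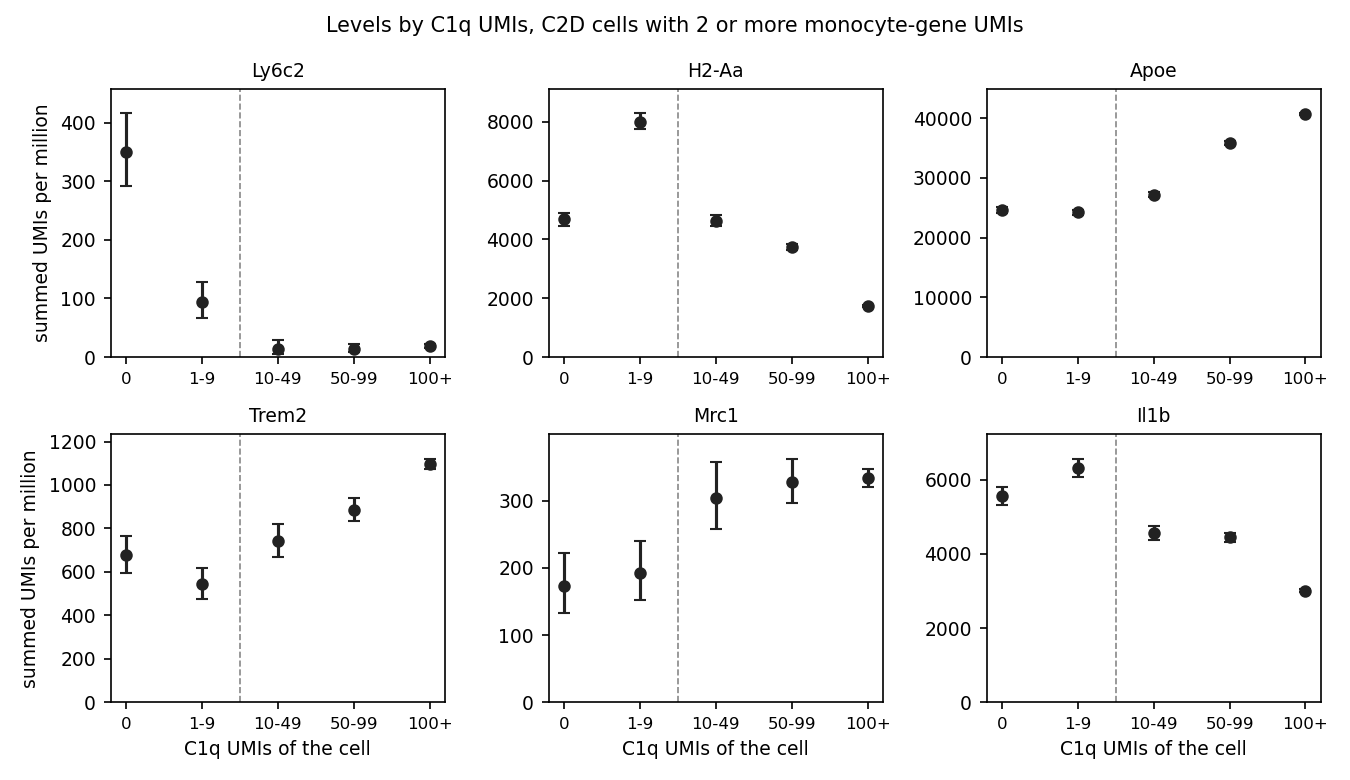
Summed level (CPM, written as UMIs per 1000000, vertical axes) of 6 genes in C2D cells with 2 or more monocyte-gene UMIs, by the cell's C1q UMIs (horizontal axes); points are levels, bars exact 95% counting intervals, and the dashed line marks the C1q limit of the rule. The Ly6c2 level of 350 without C1q comes from 3 cells and that of 93.9 at 1 to 9 from 5, and Apoe is higher in each bin past the limit.

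The C2D cells split along 2 measures, a division made after their values were seen and used as a description without a test. Apoe left a gap among C2D cells between 52.9 and 115 UMIs per 10000, with 21 cells below and 44 above. MHC class II, the sum of 10 genes, left a gap between 19.7 and 122, with 29 cells below and 36 above. At 100 UMIs per 10000 on both, C2D held 28 cells high in Apoe and low in MHC class II, 16 high in both, 20 low in Apoe and high in MHC class II, and 1 low in both. S2D held 7 cells low in Apoe and high in MHC class II and 2 low in both, with none high in Apoe. C6W held 2 cells high in Apoe alone, 2 high in MHC class II alone and 4 low in both, and both S6W cells were low in both.

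Apoe per 10000 UMIs ran from 0.611 through a median of 280 to 993 in C2D cells, against 0 through 4.67 to 46.7 in S2D cells, with a median of 7.51 without the 2 rich in digestive transcripts. It ran from 0 through 25.02 to 121 in C6W cells, against 4.79 and 14.7 in the 2 S6W cells. In C2D 44 of 65 cells held over 100, against 0 of 9 in S2D. MHC class II ran from 0.881 through 199.5 to 1082 in C2D, against 0 through 187 to 822 in S2D (median 373 without the same 2 cells), so the libraries overlapped fully in it.

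**Figure D3:**
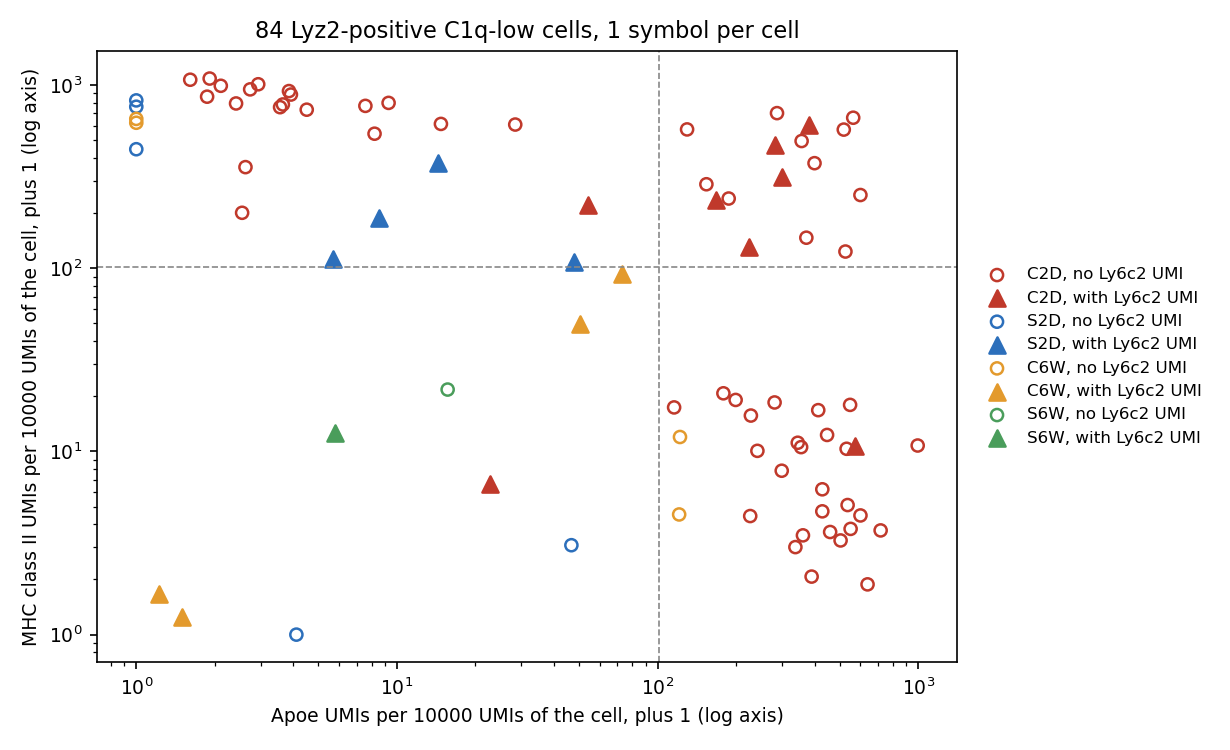
Apoe (horizontal) against summed MHC class II (vertical), both as UMIs per 10000 of the cell plus 1 on log axes, for the 84 C1q-low cells; colours mark the library, filled triangles cells with a Ly6c2 UMI, and dashed lines the division at 100. The right side holds 44 C2D cells and 2 C6W cells and no S2D or S6W cell.

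The markers did not bear out the proposed name of monocyte evenly. Over all 44 C2D cells high in Apoe, the median log2 ratio to C1q-high cells was 0.84 for 13 classical monocyte genes. It was -0.58 for 16 macrophage genes, and both lists include genes the rule used. The 28 C2D cells high in Apoe and low in MHC class II carried part of the macrophage transcripts of the C1q-high cells, some at close and some at lower levels, with the examples chosen after their values were seen and Apoe set by the split. Trem2, a lipid-sensing receptor, stood at 1127 CPM in them against 1255 in C1q-high cells, Adgre1, the F4/80 antigen, at 688 against 573, and Mrc1 at 318 against 326. Lower were Mertk, a receptor for dying cells, at 41.5 against 84.3, Gpnmb, a gene of lipid-laden macrophages, at 159 against 397, and Fabp5, a fatty acid carrier, at 301 against 956. Their Apoe was 43234 against 53170.0 and their H2-Aa 65.7 against 1309.9. Arg1, an arginine-degrading enzyme, was found in 13 of 65 C2D cells and in no C1q-low cell of the other libraries. In C2D it was also found in 24.03% of the C1q-high cells and in 0.907% of the Col3a1-rich barcodes. Its mean over the 65 cells was 0.514 UMIs per 10000, against 0.499 in C1q-high cells. In these 28 cells it stood at 138 against 49.9 in C1q-high cells. Single cells held up to 9 of the 40 Arg1 UMIs of the 28. Chil3, a chitinase-like protein of monocytes and activated macrophages, stood at 1075 against 299, and Fn1, fibronectin, at 1082 against 490.5.

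The 16 C2D cells high in both held 5 of the 8 Ly6c2-positive C2D cells. Ccl2 and Ccl7, chemokines that draw Ccr2-bearing cells, stood at 1407 and 1457 CPM in them, against 905 and 991 in C1q-high cells. Irf7, an interferon regulator, stood at 415 against 37, and 3 of the 65 cells held 80.1% of its UMIs. Gpnmb stood at 16.6 against 397, and the lysosomal protease gene Ctsd at 1135 against 6569.6. These genes were named after their values were seen. Over 14 genes of the chemokine list the median log2 ratio of all cells high in Apoe against C1q-high cells was -0.06.

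The 20 C2D cells low in Apoe and high in MHC class II were of several kinds. In 5 of them Xcr1 and Clec9a, receptors of cross-presenting dendritic cells, summed to between 4 and 9 UMIs. Those 5 held Naaa at 664 and Irf8, a transcription factor those dendritic cells need, at 604 CPM, and Csf1r, the receptor for the main macrophage growth factor, at 12.1. Of the 19 classical monocyte markers 14 were at 0 in them. Another 3 cells held 27, 10 and 6 UMIs of Ccr7, the homing receptor of migrating dendritic cells, and had Ccl22 at 449.6, Isg15 at 3651 and H2-Aa at 16529. The rule removed dendritic cells by Flt3 and Cd209a, and both were at 0 in these 8 cells. Cells with 2 or more UMIs of Xcr1 and Clec9a also occurred in S2D, 2 of 9 with 16 and 4 UMIs, and in C6W, 1 of 8 with 16.

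A further 10 of those 20 cells held fewer than 2 UMIs of Xcr1 and Clec9a and of Ccr7, no Ly6c2 and fewer than 5 UMIs of the 6 nonclassical genes named below, and all 10 held Ccr2. Summed over the 10, Cd14, a receptor for bacterial lipopolysaccharide, stood at 2891 CPM, Csf1r at 370.1, Il1b at 8491 and H2-Aa at 11061. The cells were not alike, as Il1b ran from 0 to 323 UMIs in single cells and Cd14 from 0 to 143. Single cells held 115, 72 and 31 UMIs of cell cycle genes. Apoe was 377 and Chil3 0 in them. Clec10a, a lectin of dendritic cells and macrophages, stood at 189 and Irf4, a transcription factor of dendritic cells, at 119, against 30.4 and 3.63 in C1q-high cells. Of the Irf4 UMIs of all C2D C1q-low cells, 78.3% lay in 3 cells. S2D and C6W held 1 cell each within the same limits.

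**Figure D4:**
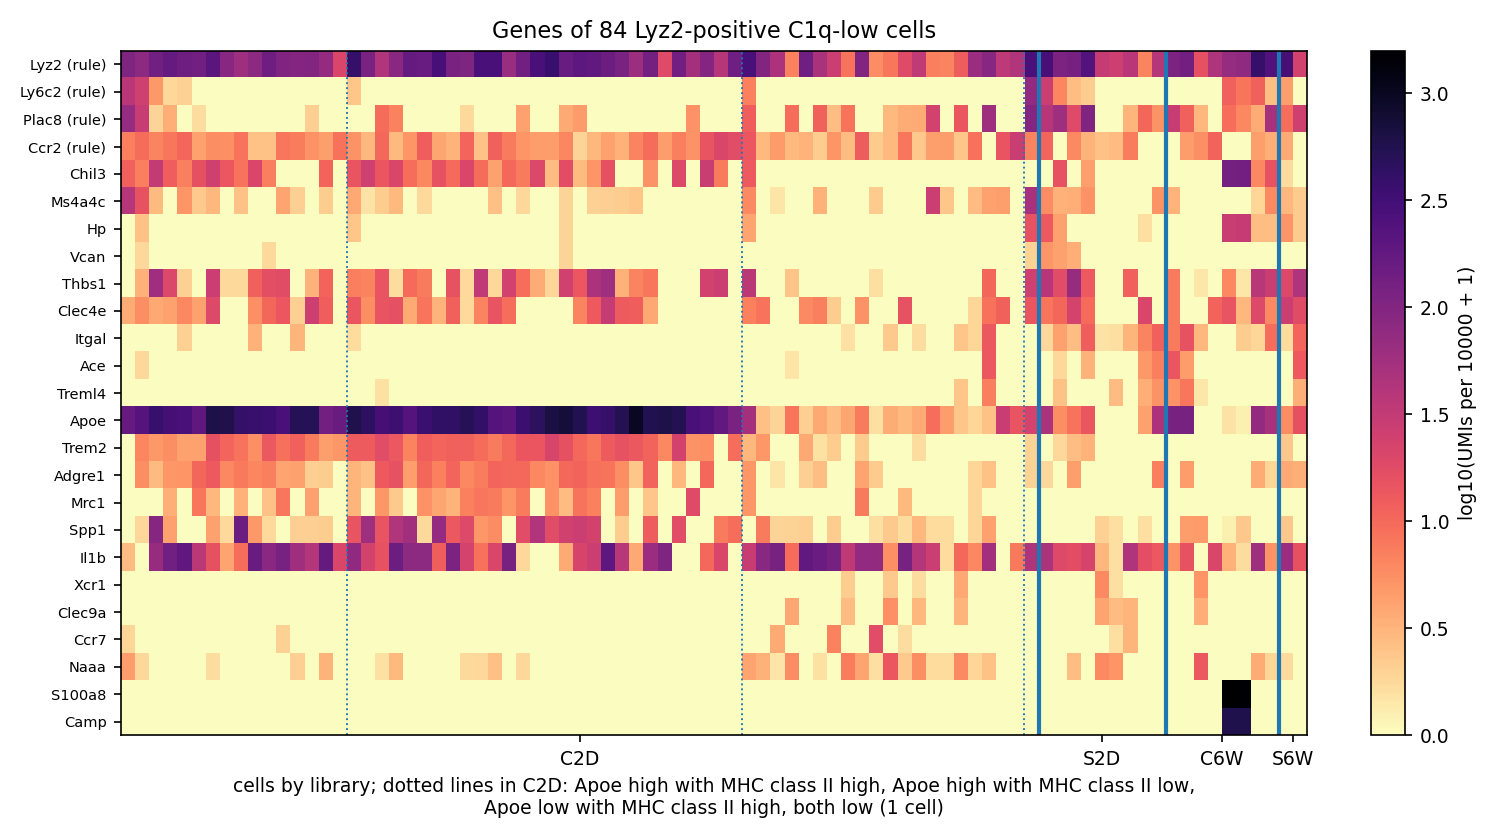
Expression of 25 genes (rows) in each of the 84 C1q-low cells (columns) as log10 of UMIs per 10000 plus 1, with the libraries set apart by solid lines and the C2D divisions by dotted lines; rows marked as rule genes chose the cells. Apoe and Trem2 fill the C2D cells high in Apoe, Xcr1 and Clec9a appear in single cells low in Apoe, and S100a8 and Camp appear in 2 C6W cells.

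Of 15 listed nonclassical monocyte genes, 6 were summed per cell, and the others did not all follow them. Nr4a1 was detected in 61 of 65 C2D cells, Cebpb in 57, Fcgr4 in 39 and Cx3cr1 in 33. In C2D C1q-high cells these were found in 94.7, 97.4, 64.2 and 63.4%. Itgal was detected in 10 C2D cells, Hes1 in 6 and Pglyrp1 in 3. Ace, Treml4, Cd300e, Spn, Adgre4 and Eno3 summed to 5 UMIs or more in 1 of 65 C2D cells, which held 23, against 4 of 9 S2D cells with 19, 12, 9 and 7. They did so in 2 of 8 C6W cells with 14 and 9, against 1 of 2 S6W cells with 27. The integrin gene Itgal, which nonclassical monocytes use to crawl along vessel walls, stood at 28.3 CPM in C2D cells against 314 in S2D cells, and at 195 in C6W cells (388 without the 2 neutrophil-gene cells described next) against 394 in S6W cells. In S2D, 2 of the 4 Ly6c2-positive cells also reached 5 nonclassical UMIs, against 0 of 8 in C2D.

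In C6W 2 cells stood apart from the rest. They held 44704 and 39845 UMIs, of which 19582 and 17155 came from S100a8, S100a9, Camp and Ngp, genes of neutrophil granules and cytosol. They also held 33 and 42 Ly6c2 UMIs, 575 and 498 Chil3 UMIs and 424 and 349 UMIs of cell cycle genes, with Ccr2 at 0. Maturing neutrophils of bone marrow are known to carry these genes. The condition on Csf3r, the receptor for granulocyte colony stimulating factor, did not remove them, as each held 1 UMI at most. Without them the C6W share was 0.216% (6 cells, 0.0794 to 0.470%), and the Ly6c2 level of C6W cells was 236 CPM in place of 619. In C2D cells S100a8, Retnlg, Ly6g, Camp and Ngp were at 0.

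Cells with a Ly6c2 UMI are set apart here as a description only, since the rule used that gene. Thbs1, a matrix glycoprotein that monocytes secrete, stood at 1733 CPM in the 8 C2D cells against 3434 in the 4 S2D cells, and Ifitm3, an antiviral membrane protein, at 4550.0 against 4781. Neither gene was higher in C2D, and others were. Apoe was 26347 in C2D against 1825 in S2D, Fcgr1, a high-affinity antibody receptor, 661 against 86.9, and Spp1, osteopontin, 1343 against 0. The Spp1 level came mostly from 1 C2D cell with 99 UMIs, and the next held 20. The interferon-induced genes Irf7 and Isg15 were 1387 and 1527 in C2D against 21.7 and 65.2 in S2D. Vcan, versican, and Itgal were 21.7 and 21.7 in C2D against 261 and 369 in S2D. With 8 and 4 cells from 1 library each these are sums over few cells, 1 of the 4 S2D cells was rich in digestive transcripts, and Apoe was above 100 UMIs per 10000 in 6 of the 8 and in 0 of the 4.

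Across all C1q-low cells the same contrast between libraries appeared. Il1b was detected in 58 of 65 C2D cells against 9 of 9 S2D cells, at 5968 CPM in C2D against 1628 in S2D. Cxcl2 and Ccl4, chemokines that draw neutrophils and monocytes, stood at 6114 and 3218 in C2D against 1720.0 and 213 in S2D. Cebpb, a transcription factor of monocytes, differed less, at 1373 in C2D against 1544 in S2D and 2198 in C6W against 2936 in S6W. Mrc1 was found in 29 of 65 C2D cells and in none of the 19 cells of the other libraries, and Trem2 in 50 of 65 C2D cells against 3 of 9 S2D cells. In Col3a1-rich barcodes, as a measure of free RNA, Il1b was found in 25.4% in C2D against 0.853% in S2D, Mrc1 in 3.45% against 0.171%, and Trem2 in 7.99% against 0%. The makeup of the cells, described above, moved with these levels, and its part in them was not tested. No gene-by-gene comparison between libraries was made because S2D, C6W and S6W held 9, 8 and 2 cells.

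Within C2D the 65 C1q-low cells were set against the 1236 C1q-high cells of the same library, gene by gene, on summed UMIs. The rule that divides them used C1q, and the C1q-high cells had no condition on the monocyte genes, so the comparison describes the division and tests nothing. Of 5988 genes with enough UMIs, 193 (3.22%) exceeded a 2-fold ratio upwards in C1q-low cells and 261 (4.36%) downwards, and the median log2 ratio was -0.05. All 10 MHC class II genes were among the higher, with a list median of 2.32 on the log2 scale. H2-Eb1 had a log2 ratio of 2.47 (2.42 to 2.51), H2-Aa of 2.27 (2.22 to 2.31), and Ciita, the factor that switches these genes on, of 2.26 (1.74 to 2.76). H2-Oa, whose product slows peptide loading, had 4.66 (3.96 to 5.38) from 39 UMIs in the C1q-low cells. With only the 44 cells high in Apoe the median of the 6 genes still compared was 0.82, and H2-DMb2, which has a near-identical neighbour in H2-DMb1, had 1 UMI and a ratio of -0.41 (-5.74 to 2.14).

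MHC class II genes share promoter elements, among them the Y box, whose core reads TGATTGG on the coding strand. The 250 bases before the start were searched for it in part of the listed genes. Of 7 MHC class II genes that were searched in RefSeq promoter windows (GRCm38.p6), 6 held TGATTGG on either strand, against 7.23% of 32851 windows of the same length for all genes. The 7 genes had 8 windows, and the percentage for all genes counts windows. The shorter ATTGG, contained in it, occurred in 33.8% of all windows and in 7 of the 7 genes. A match is a description of these letters and does not show that a factor binds. The windows of H2-Aa (chr17:34287824-34288073, minus strand), H2-Eb1 (chr17:34305617-34305866, plus strand) and H2-Oa (chr17:34092129-34092378, plus strand) are printed from 5′ to 3′ up to the base before the start, with the match in capitals. They were picked because H2-Aa and H2-Eb1 each encode an MHC class II chain and H2-Oa had the highest ratio of the list. The match began 50 bases before the start in H2-Aa, 61 in H2-Eb1 and 45 in H2-Oa.
H2-Aa: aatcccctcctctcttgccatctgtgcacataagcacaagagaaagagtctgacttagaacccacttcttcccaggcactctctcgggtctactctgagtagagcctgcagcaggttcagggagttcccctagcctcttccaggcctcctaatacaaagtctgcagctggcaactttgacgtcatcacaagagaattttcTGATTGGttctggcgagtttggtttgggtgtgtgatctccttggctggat
H2-Eb1: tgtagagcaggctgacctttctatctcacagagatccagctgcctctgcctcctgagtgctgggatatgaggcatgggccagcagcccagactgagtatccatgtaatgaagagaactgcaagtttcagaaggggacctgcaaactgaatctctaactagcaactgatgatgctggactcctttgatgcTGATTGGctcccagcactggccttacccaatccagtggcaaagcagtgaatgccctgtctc
H2-Oa: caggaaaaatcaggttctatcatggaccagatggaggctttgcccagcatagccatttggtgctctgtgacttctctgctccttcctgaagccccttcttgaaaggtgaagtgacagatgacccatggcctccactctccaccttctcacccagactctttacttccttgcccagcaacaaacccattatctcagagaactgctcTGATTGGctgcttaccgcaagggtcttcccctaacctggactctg

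Dendritic cell genes were also higher in the C1q-low cells. Of 7 conventional dendritic cell genes compared, 5 passed 2-fold upwards and none downwards, and the list median was 2.26. Clec9a had the highest ratio of the genes compared, 6.56 (5.12 to 8.32), with 72.7% of its UMIs in 3 cells, and Ear2, a ribonuclease gene, had 6.42, with 100% of its UMIs in 3 cells or fewer. Itgb7 and Itgax, integrin chains of dendritic cells, had 3.33 and 2.25, and Ccr7 had 3.59, with 93.5% of its UMIs in 3 cells. With only cells high in Apoe, Clec9a had no UMI, Itgb7 stood at -0.41 (-2.70 to 1.17), Itgax at -0.17 (-1.63 to 0.97) and Ccr7 at -0.21 (-3.28 to 1.69) from 3, 6 and 2 UMIs. Klrd1, Klrk1 and Klrb1b, lectin-type receptors first known from natural killer cells, had 5.66, 5.42 and 5.64, while Ncr1, Klrb1c, Klre1 and Prf1, defining genes of those cells, were at 0 in the C1q-low cells. Klrd1 stood at 486 CPM in the 3 Ccr7 cells.

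Interferon and classical monocyte genes were higher in part. Of 22 interferon response genes compared, 9 passed 2-fold upwards and none downwards, and the list median was 0.93. Irf7 had 2.45 (2.19 to 2.70), with 80.1% of its UMIs in 3 cells, Isg15 1.38 and Ifi205 2.92. Of 15 classical monocyte genes compared, 4 of which the rule uses, 6 were at least 2-fold higher and 1 lower. Apart from Ly6c2 and Plac8 the higher ones were Ifitm6 at 3.74, Hp, haptoglobin, at 2.41, Ms4a4c at 2.36 and Chil3 at 1.14. The 3 richest cells held 52.5% of the Ifitm6 UMIs, 87.0% of Hp, 64.6% of Ms4a4c and 22.1% of Chil3. Mgst1, a glutathione transferase, was lower at -1.32. Thbs1 at -0.06, F13a1, a clotting factor chain, at -0.74 and Fn1 at 0.33 stayed within 2-fold. Vcan, with 4 UMIs in the 65 cells, was too low to be compared. Among 7 nonclassical genes only Itgal passed 2-fold, at 1.83.

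Macrophage genes were the lower side of the division. Of 17 compared, 3 of which the rule uses, none was at least 2-fold higher and 13 were lower, with a median of -1.44. Cd5l, a secreted protein of resident macrophages, had -3.82, Pf4, a chemokine of platelets and macrophages, -1.44, and Stab1 and Maf, a scavenger receptor and a transcription factor of resident macrophages, -1.16 and -1.02. Among named genes that the rule did not use, the chemokine Ccl8 was lowest at -5.20 (-7.48 to -3.65). Of 19 genes of lipid-associated macrophages 11 were at least 2-fold lower and none higher, with a median of -1.08. Fabp5 had -2.70 (-2.98 to -2.44), Gpnmb -2.63 (-3.06 to -2.23) and Cd63, a lysosomal membrane protein, -1.73. Only part of these differences stayed past 2-fold among the cells high in Apoe. There the lipid list had a median of -1.02, Fabp5 -2.16, Gpnmb -1.96 and Cd63 -1.11. The macrophage list had -0.58, and Pf4 at -0.71, Stab1 at -0.47 and Maf at -0.31 were within 2-fold. Ccl8 and Cd5l stood at -4.48 and -3.10 there, from 3 and 2 UMIs.

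**Figure D5:**
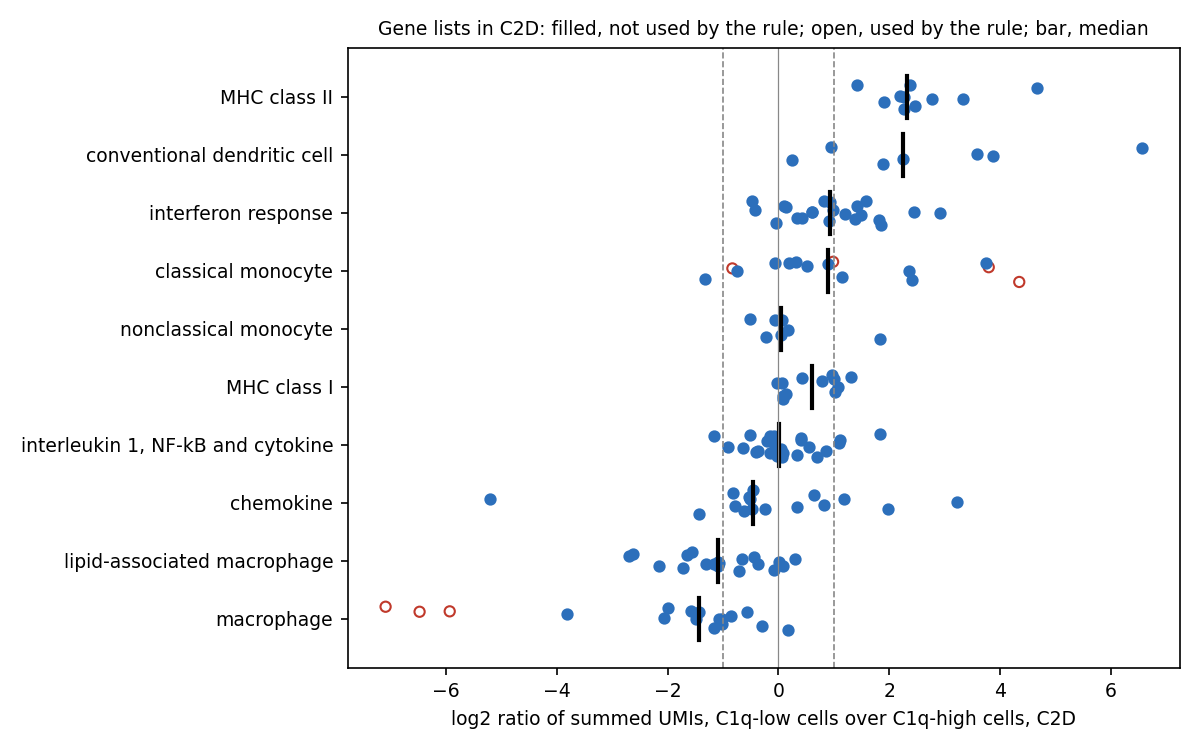
Log2 ratio of summed UMIs, C1q-low over C1q-high cells of C2D (horizontal axis), for the compared genes of 10 lists (rows); filled points are genes the rule did not use, open points genes it used, black bars list medians, and dashed lines 2-fold. The MHC class II genes lie to the right of 2-fold with a median of 2.32, and the macrophage list lies to the left with a median of -1.44.

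Inflammatory genes divided less cleanly. Of 24 genes of the interleukin 1 and NF-kB list 3 passed 2-fold upwards and 1 downwards, and the list median was 0.01. Il1b had 1.09 (1.05 to 1.14), Il6 1.83 and Il10, an anti-inflammatory cytokine, -1.16, while Tnf at -0.51 and Il1a at -0.06 stayed within 2-fold. Of 16 chemokine genes 3 were higher and 2 lower. Ccl22, which draws regulatory T cells, had 3.22, and Cxcl3, which draws neutrophils, had 1.98 with 98.96% of its UMIs in 3 cells and stood at -2.88 (-5.93 to -1.02) from 2 UMIs among cells high in Apoe. In those cells Ccl22 had no UMI, and Il6 stood at 0.03 (-1.87 to 1.42) from 4. Ccl2, Ccl7, Ccl3 and Cxcl2 lay between -0.81 and -0.45. Across all 5988 genes compared, the shares past 2-fold were 3.22% upwards and 4.36% downwards. No list was tested against these shares, so list counts of 1 or 2 genes are a description only. Of 12 MHC class I genes 4 were higher. Of 30 transcription factors 2 were higher and 1 lower, and of 15 growth factor and lipid receptors none passed 2-fold. Of 21 pattern recognition and phagocytic receptors 1 was higher and 4 lower, and of 19 chemokine and adhesion receptors 4 were higher and 1 lower. The S100 and annexin list had 1 higher and 1 lower of 11, the matrix and coagulation list 1 lower of 15, and the cell cycle list 1 higher and 1 lower of 11. Genes that respond to tissue dissociation had 1 higher of 21 with a median of 0.07, those of hypoxia and glycolysis 1 higher of 22, and those of iron and oxidative stress 1 higher and 2 lower of 20.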

How the data were processed

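The deposited matrices hold raw UMI counts per gene and barcode for 31053 features, in barcodes the authors had called as cells. Cell Ranger 3.0.2 and FastQC were used with the mm10 build, per the submitters' processing notes. The files hold 5433 (C2D), 5316 (S2D), 4195 (C6W) and 2623 (S6W) barcodes with 71547194, 36914373, 33788935 and 29145886 UMIs. Groups came from the sample titles. The conditions on genes and barcodes were applied to the counts as deposited. Doublets were called per library with Scrublet in scanpy 1.11.5 (19 in C2D, 38 in S2D, 32 in C6W, 15 in S6W) and kept. Because 19 is a low number for C2D, an alternative also removed 173, 90, 62 and 33 barcodes at 0.8% per 1000 barcodes.

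Shares have exact Clopper-Pearson intervals and levels exact Poisson intervals, both at 95%. Levels are summed UMIs scaled to 1000000 UMIs of the pool (CPM). The log2 ratios within C2D used totals adjusted by edgeR 4.0.16 (TMM) and exact conditional binomial intervals. Genes were compared where their mean level over both pools gives at least 10 UMIs in the smaller pool, and digestive, immunoglobulin and haemoglobin genes were left out. The size rule was a log2 ratio of 1 either way. Comparisons between libraries needed 10 cells in each, which S2D, C6W and S6W lacked. The text names the 10 highest and 10 lowest ratios in part, up to 4 genes of each list and the monocyte lists; other genes it gives were chosen after their values were seen. The members and lists were chosen with earlier results of these data known. Promoter windows are RefSeq's (GRCm38.p6) and gene positions those of the GRCm38 annotation. The ratio calculation was tested on simulated data. Python 3.11.15, numpy 2.4.6, scipy 1.17.1, pandas 2.3.3, matplotlib 3.10.9 and R 4.3.3 were used.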

Additional observations from a re-analysis of the deposited data

How the results depend on the processing

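Each group is 1 library and most hold fewer than 10 C1q-low cells, so no setting can be set against replicate error. No paired analysis was possible because each group is 1 library and no test across samples was made. Rules in UMIs depend on depth: applied to barcodes of 5000 or more UMIs thinned to 5000, the C2D share was 1.97%. Of barcodes with Ptprc, C1q-low cells were 2.20% in C2D, 0.719% in S2D, 1.24% in C6W and 0.551% in S6W. Counting only cells with Ly6c2, the C2D share was 0.172% and the S2D share 0.120%. Counting only cells without a C1q UMI, the C2D share was 0.580% (0.382 to 0.843%). The other settings run for the shares kept them within the main intervals.

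The counts of genes at least 2-fold higher or lower in C2D, 193 and 261, moved with the genes and cells admitted. They were 311 and 462 with a minimum of 5 expected UMIs, 105 and 123 with 20, 5686 and 966 with none, 34 and 69 with cells thinned to 2000 UMIs, and 46 and 97 with only the cells high in Apoe, the last chosen after seeing the data. The rule at 5000 UMIs gave 121 higher genes. The higher genes were 42.5% of those past 2-fold, 85.5% with no minimum and 32.2% with only cells high in Apoe. Among 75 named genes past 2-fold, 78 of 1050 values fell under 2-fold, in 45 genes, and 10 changed sign. With only cells high in Apoe these were Ccr7 (-0.21), Cxcl3 (-2.88), H2-DMb2 (-0.41), Itgax (-0.17) and Itgb7 (-0.41), from 6 UMIs or fewer, and Cenpf (-0.54) and Plvap (-0.44), which had no UMI there. With the rule at 5000 UMIs they were Cenpf (-1.75) and Cxcl3 (-2.34), from 1 and 2 UMIs, and with thinned cells S1pr1 (0.24), from none. Values from no UMI are upper bounds at a floor of 3 UMIs, so a positive one, such as S1pr1 or the 4.41 of Clec9a with only cells high in Apoe, shows no direction. The cause was not tested. The alternatives planned for comparisons between libraries were not run.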
